A study of Mus musculus with 22 samples.

Results

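The 32 genes described here make up a glycolysis and hypoxia response set. It holds the enzymes that break glucose down to lactate, the carriers that bring glucose into a cell and take lactate out, the oxygen-sensing factor Hif1a with its hydroxylases, and genes that cells switch on when oxygen is scarce. The members were listed by symbol, and each was read from the probe set that maps to that symbol alone, or, where there were several, the one with the highest mean over all 22 arrays. Of the 32 members 29 had such a probe set, among 19937 genes of the array, and Gpi1, Gapdh and Eno1 are not analysed here. By its mean, 27 members lay above the array medians of 36.1 to 38.6 intensity units. These 27 were above the median on at least 2 arrays and were tested, and 24 of them were above it on all 22 arrays. Egln3 was above it only on the 6 arrays of the 2 WT groups fed cuprizone, so it entered the test through the groups in which it is high. Its levels are given without a difference or p, and the main counts that hold it are also given without it. Pfkp, a phosphofructokinase (13.3 to 25.7 intensity units), and Eno2, an enolase (15.5 to 26.6), lay below the median on every array and were not tested.

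RNA levels came from mouse gene arrays run on microglia, the resident macrophages of brain tissue, which had been sorted by the surface proteins CD11b, CD45 and F4/80 together. Mice were wild type (WT) or Trem2(-/-) (KO), and Trem2 is a lipid-sensing receptor of myeloid cells. The groups were WT both (3 arrays, Covi-Ox at 0.1% of the feed plus cuprizone at 0.2%), WT Covi-Ox (3 arrays, 0.1% Covi-Ox), WT cuprizone (3 arrays, 0.2% cuprizone), KO cuprizone (3 arrays, 0.2% cuprizone), 2 further KO sets of 3 arrays each, and the untreated WT control and KO control with 2 arrays each. Cuprizone chelates copper and causes loss of oligodendrocytes and myelin, while Covi-Ox, a tocopherol preparation, was given with added alpha tocopherol. Treatment ran for 4 weeks by the array labels, after 2 weeks on Covi-Ox feed (WT both) or chow (cuprizone alone), and the labels also speak of a longer arm. For KO set A the titles name both additives while the other fields name Covi-Ox alone, and for KO set B it is the reverse, so neither reading was chosen. The sources used here do not give strain, sex, age or the origin of the Trem2 allele. Nothing says that the arrays of a group come from separate mice, so the p-values speak only of the spread among these samples, which may be technical.

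Glycolysis turns glucose into pyruvate in the cytosol, and lactate dehydrogenase turns pyruvate into lactate, which lets the pathway run without oxygen. The transcription factor HIF-1, of which Hif1a is the regulated subunit, is hydroxylated and degraded when oxygen is present and, when it is stabilised, binds DNA at sites around the letters ACGTG or GCGTG to switch on many glycolytic enzymes, Slc2a1, Vegfa, Bnip3 and its own hydroxylase Egln3. Macrophages, microglia among them, also raise glycolysis and Hif1a when they are activated in normal oxygen.

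The windows from 250 bases before to 50 bases after the annotated starts of 5 members are shown here because the results below turn on these genes, and because they span the range from many such letters to none (RefSeq, GRCm38.p6). Capitals mark ACGTG and GCGTG on either strand, which read CACGT and CACGC where the match is on the other strand. The windows are Pgk1 (chrX:106186850-106187149, plus strand), Ldha, the first of 2 annotated starts (chr7:46845554-46845853, plus strand), Egln3 (chr12:54203825-54204124, minus strand), Bnip3 (chr7:138909457-138909756, minus strand) and Tpi1 (chr6:124814109-124814408, minus strand).
Pgk1: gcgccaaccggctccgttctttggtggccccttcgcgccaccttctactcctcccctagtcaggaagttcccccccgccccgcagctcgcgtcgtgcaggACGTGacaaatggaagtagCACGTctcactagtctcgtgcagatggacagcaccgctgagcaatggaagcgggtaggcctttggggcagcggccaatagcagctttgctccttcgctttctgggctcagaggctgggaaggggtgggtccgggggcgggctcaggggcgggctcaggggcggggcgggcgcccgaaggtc
Ldha: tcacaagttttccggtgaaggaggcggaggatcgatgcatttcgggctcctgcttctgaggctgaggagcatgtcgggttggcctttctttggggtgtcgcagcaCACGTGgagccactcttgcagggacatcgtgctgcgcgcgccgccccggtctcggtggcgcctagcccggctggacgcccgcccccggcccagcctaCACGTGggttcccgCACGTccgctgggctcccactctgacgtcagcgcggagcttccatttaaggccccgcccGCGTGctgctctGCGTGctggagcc
Egln3: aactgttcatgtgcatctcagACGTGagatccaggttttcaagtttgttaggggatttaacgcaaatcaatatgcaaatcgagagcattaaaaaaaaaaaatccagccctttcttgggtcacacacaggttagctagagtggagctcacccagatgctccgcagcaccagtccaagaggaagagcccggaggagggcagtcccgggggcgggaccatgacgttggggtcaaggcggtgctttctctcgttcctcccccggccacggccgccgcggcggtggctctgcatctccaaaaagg
Bnip3: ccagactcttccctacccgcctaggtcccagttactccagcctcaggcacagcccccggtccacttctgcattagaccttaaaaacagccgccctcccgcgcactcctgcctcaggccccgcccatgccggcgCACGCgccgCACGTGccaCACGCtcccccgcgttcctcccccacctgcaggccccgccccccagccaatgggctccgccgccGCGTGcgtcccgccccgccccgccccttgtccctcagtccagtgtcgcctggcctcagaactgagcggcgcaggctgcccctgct
Tpi1: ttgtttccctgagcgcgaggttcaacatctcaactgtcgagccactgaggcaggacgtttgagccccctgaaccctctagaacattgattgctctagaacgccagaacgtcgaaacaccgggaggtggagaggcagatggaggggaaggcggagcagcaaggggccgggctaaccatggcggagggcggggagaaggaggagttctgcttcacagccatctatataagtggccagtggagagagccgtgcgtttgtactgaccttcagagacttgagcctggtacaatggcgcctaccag
Counted over both strands, ACGTG occurs 2 times in the window of Pgk1, 5 times in that of Ldha, 1 time in that of Egln3, 2 times in that of Bnip3 and not at all in that of Tpi1. Some of these lie in the palindrome CACGTG, which counts once on each strand. Of the 32851 windows that RefSeq gives, 19.6% hold ACGTG, 32.4% GCGTG and 7.15% CACGTG. Among the 26 tested members with a window, 23 (88.5%) hold ACGTG in at least 1 window, against 28.8% of the 9470 tested genes with a window. The list holds known HIF-1 targets, so a high share of ACGTG is partly built into it and is no finding from these arrays. ACGTG is in 12 of the 14 members that rose in WT both, Egln3 among them, and in 11 of the other 12. GCGTG is in 16 (61.5%) of the 26 tested members, against 53.7% of the 9470 tested genes. It is in 6 of the 14 members that rose and in 10 of the other 12. A match describes letters and is not a measured binding site.

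Trem2 was low on every KO array, at 84.5 to 114 intensity units, against 1022 to 1724 on the WT arrays. The mean of 26 immediate-early genes, which respond within minutes to cell dissociation, was 8.35 (log2) on WT cuprizone 3 and 8.55 and 8.60 on KO cuprizone 2 and 3, against 9.47 to 9.70 on the other 19 arrays. Microglia markers, of which 13 of 14 were measured, summed to 24718 to 24942 intensity units in WT both, against 31501 to 31552 in WT Covi-Ox, and to 26210 to 28733 in WT cuprizone, against 30795 to 31623 in WT control. The sum of 12 neutrophil markers ran from 470 to 644 in WT both, against 266 to 342 in WT Covi-Ox. In WT cuprizone it ran from 783 to 2582, against 3451 to 3503 in WT control. All 8 tested neutrophil markers had positive differences on Covi-Ox (median 0.41), where S100a8 rose by 2.66. On chow 1 of the 8 was positive (median -0.86). Fn1, on the monocyte list, and Flt1, on the endothelial list, rose in both WT comparisons. Of the 5 tested monocyte markers 4 had positive differences on Covi-Ox (median 0.89) and 3 on chow (median 0.02). Of the 4 tested endothelial markers 2 had positive differences on Covi-Ox, with a median of -0.14. Without Flt1 the other 7 endothelial and pericyte markers summed to 189 to 215 in WT both, against 207 to 254 in WT Covi-Ox, and Pecam1 fell by 0.68 on Covi-Ox. Without Fn1 the other 6 monocyte markers summed to 185 to 235 in WT both, against 174 to 187 in WT Covi-Ox, and to 225 to 271 in WT cuprizone, against 250.2 to 271 in WT control. The 10 markers of border macrophages, all with negative differences in both comparisons, summed to 1696 to 2068 in WT both, against 2757 to 3405 in WT Covi-Ox, and to 2001 to 2554 in WT cuprizone, against 3235 to 3400.1 in WT control. Of these Mrc1, Cd163, Pf4 and Stab1 fell on Covi-Ox and Pf4 on chow. RMA gives no value of 0, so no defining marker was at 0, and the part of these lists in the results was not tested. In sorted cells measured in bulk, fewer cells of a type and less RNA per cell cannot be told apart.

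Cuprizone in the diet went with higher levels of the lower glycolytic chain in WT microglia, with and without Covi-Ox. On Covi-Ox, 14 of the 27 tested members rose and none fell, and on chow 9 rose and none fell. Without Egln3 these counts were 13 and 8 of 26. Among all 11830 genes tested, 4.65% rose and 3.17% fell in WT both relative to WT Covi-Ox, and 1.8% rose and 0.702% fell in WT cuprizone relative to WT control. The arrays lay apart, with every cuprizone array the higher, for 15 members (14 without Egln3) on Covi-Ox, against 13.1% of all genes, and for 15 (14 without Egln3) on chow, against 15.3% of all genes. With every cuprizone array the lower they lay apart for 2 members on chow (Pfkm and Aldoc) and 0 on Covi-Ox. The share of all genes in that direction is not given here. The 2 comparisons share no array, but their calls use the spread of the same fit. All 9 members called on chow were among the 14 called on Covi-Ox (100% of the one list, 64.3% of the other). Egln3 is in both lists, and without it the 8 on chow were all among the 13 on Covi-Ox. The overlap over all genes is not given here. The median member was 0.44 higher (log2) on Covi-Ox and 0.42 higher on chow, or 0.43 and 0.42 without Egln3, while the median of all genes tested stood at -0.03 and -0.02. Calls are at an adjusted p below 0.05 in limma's test, and each ± is the standard error (SE) of that fit. The groups compared hold 3 and 3 arrays on Covi-Ox and 3 and 2 arrays on chow. The SE rests on a spread pooled over all arrays and groups, so it does not show the spread of the arrays compared. For Pgk1 the standard deviation (log2) was 0.03 in WT both and 0.52 in WT cuprizone, while the SE was 0.18 on Covi-Ox and 0.20 on chow.

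**Figure D1:**
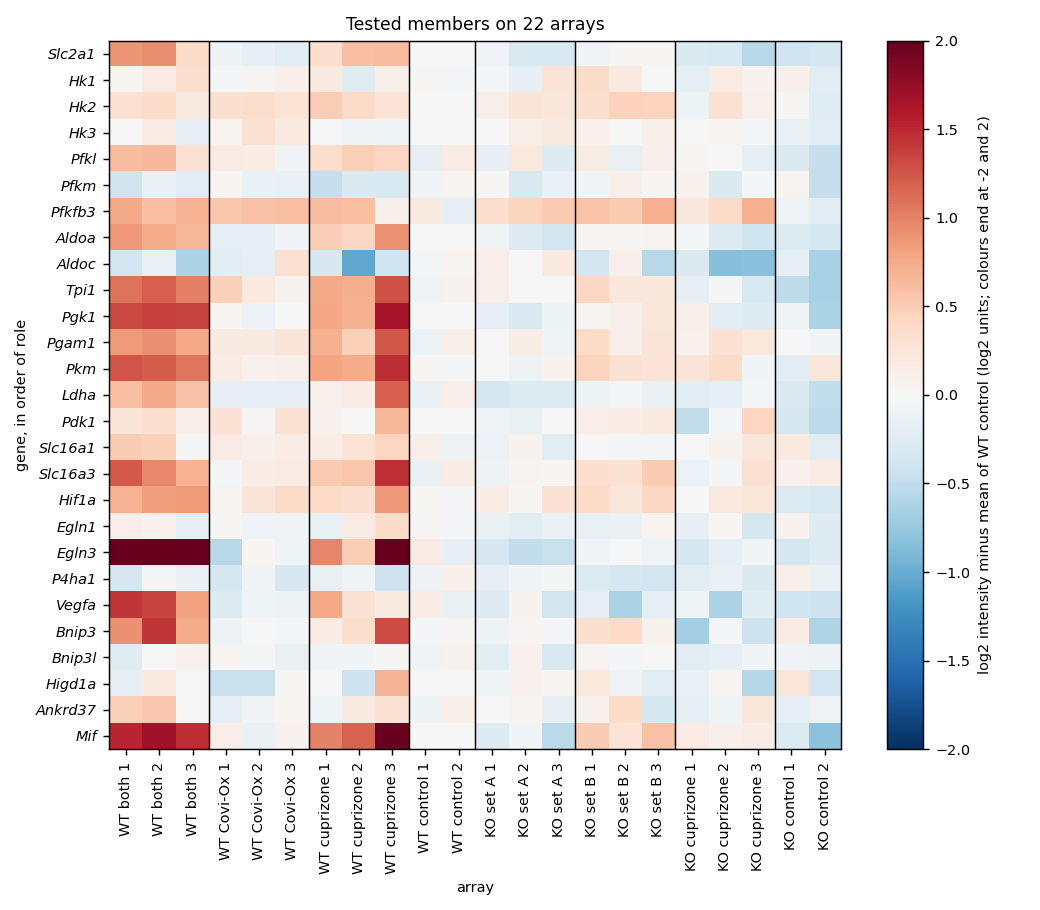
Heatmap of the 27 tested members (rows, in order of role) on the 22 arrays (columns, by group), as log2 intensity minus the mean of the WT control arrays, with colours ending at -2 and 2. The lower glycolytic enzymes, Slc16a3, Egln3 and Mif are red on the WT both and WT cuprizone arrays. The median member lies between 0.33 and 0.65 on those WT arrays and between -0.31 and 0.10 on the KO arrays.

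Of the carriers for glucose entry, Slc2a1 rose on Covi-Ox. Slc2a1, the widespread glucose carrier GLUT1, had 673, 692 and 473 intensity units in WT both, against 339, 325 and 313 in WT Covi-Ox. It had 461, 552 and 562 in WT cuprizone, against 368 and 362 in WT control. Neither pair of groups overlapped, and WT both 3 was the lowest of its group. The difference was 0.89 ± 0.13 on Covi-Ox (log2, adjusted p = 0.000123), and on chow 0.52 ± 0.14 missed the threshold (adjusted p = 0.0571).

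None of the hexokinases, which trap glucose by phosphorylation, was called. Hk1 had 1415, 1519 and 1739.8 in WT both, against 1342, 1385 and 1458 in WT Covi-Ox, and 1546, 1147 and 1476 in WT cuprizone, against 1381 and 1335 in WT control. Hk2, the form that HIF-1 is known to raise, had 301, 317 and 277 in WT both, against 305, 313 and 295 in WT Covi-Ox, and 344, 319 and 296 in WT cuprizone, against 247 and 243 in WT control. Only the Hk2 values on chow lay apart, with a difference of 0.38 ± 0.12 (adjusted p = 0.0994). Hk3, a form of myeloid cells, had 82.7, 92.7 and 72.5 in WT both, against 86.5, 103 and 95.00 in WT Covi-Ox, and 82.7, 79.6 and 78.1 in WT cuprizone, against 82.7 and 83.6 in WT control. Its differences were -0.20 ± 0.10 on Covi-Ox and -0.05 ± 0.11 on chow.

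At the phosphofructokinase step, which commits glucose to glycolysis, the liver-type subunit Pfkl had 128, 131 and 102 in WT both, against 93.4, 92.6 and 79.1 in WT Covi-Ox, and 107, 116 and 112 in WT cuprizone, against 74.5 and 93.4 in WT control. The groups lay apart in both pairs, and the difference was called on Covi-Ox (0.44 ± 0.13, adjusted p = 0.049) but not on chow (0.42 ± 0.15, adjusted p = 0.151). The muscle-type subunit Pfkm, near the array median, had 33.2, 39.8 and 37.9 in WT both, against 44.9, 39.9 and 39.5 in WT Covi-Ox, and 31.9, 35.8 and 35.6 in WT cuprizone, against 42.3 and 45.4 in WT control. Its differences were -0.17 ± 0.13 on Covi-Ox and -0.35 ± 0.15 on chow, neither called. On chow the groups lay apart, with WT cuprizone the lower. Below the median on all of these arrays, the platelet-type Pfkp had 25.7, 21.96 and 22.6 in WT both, 23.3, 19.2 and 17.95 in WT Covi-Ox, 20.4, 24.1 and 18.9 in WT cuprizone and 18.8 and 22.6 in WT control. Pfkfb3, which makes the activator fructose 2,6-bisphosphate, had 0.11 ± 0.14 on Covi-Ox and 0.44 ± 0.16 on chow, neither called.

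Between aldolase and pyruvate kinase 5 enzymes rose in both comparisons: Aldoa, Tpi1, Pgk1, Pgam1 and Pkm. Aldoa, the aldolase that splits the sugar, had 1792, 1655 and 1569.6 in WT both, against 867, 863 and 939 in WT Covi-Ox, and 1392, 1319.9 and 1845 in WT cuprizone, against 987 and 985 in WT control. Tpi1, the isomerase of the triose phosphates, had 475, 513 and 447 in WT both, against 309.8, 255 and 234 in WT Covi-Ox, and 379.5, 370.4 and 541 in WT cuprizone, against 214 and 234 in WT control. Pgk1, which makes the first ATP of the pathway, had 718, 742 and 737 in WT both, against 298, 267 and 286 in WT Covi-Ox, and 495, 474 and 901 in WT cuprizone, against 286 and 291 in WT control. In none of these did the groups overlap, and WT cuprizone 3 was the highest of its group each time. Pgam1, a phosphoglycerate mutase, had 411, 432 and 388 in WT both, against 260.0, 257 and 273 in WT Covi-Ox, and 373, 316 and 539.6 in WT cuprizone, against 211 and 248 in WT control. Pkm, the pyruvate kinase, had 703, 682 and 622 in WT both, against 332, 314 and 318 in WT Covi-Ox, and 511, 494 and 825 in WT cuprizone, against 302 and 288 in WT control. Again the groups lay apart in each pair.

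On Covi-Ox the largest difference in this stretch was that of Pgk1, at 1.37 ± 0.18 (adjusted p = 5.44e-05), and the smallest that of Pgam1, at 0.64 ± 0.14 (adjusted p = 0.00726). Aldoa had 0.91 ± 0.12, Tpi1 0.85 ± 0.13 and Pkm 1.06 ± 0.16. On chow Pgk1 had 1.05 ± 0.20 (adjusted p = 0.00688), Pkm 1.01 ± 0.18, Tpi1 0.92 ± 0.15, Pgam1 0.81 ± 0.16 and Aldoa 0.61 ± 0.14 (adjusted p = 0.0199). Aldoc, the brain-type aldolase, had 39.1, 45.8 and 32.8 in WT both, against 43.3, 44.9 and 62.5 in WT Covi-Ox, and 40.6, 24.6 and 38.3 in WT cuprizone, against 49.5 and 52.03 in WT control. Its differences pointed down, at -0.35 ± 0.21 and -0.59 ± 0.24, and neither was called. On chow the groups lay apart, with WT cuprizone the lower. Eno2, below the median, had 26.4, 21.2 and 24.6 in WT both, 26.6, 24.2 and 24.2 in WT Covi-Ox, 24.7, 25.6 and 21.7 in WT cuprizone and 21.96 and 25.1 in WT control.

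**Figure D2:**
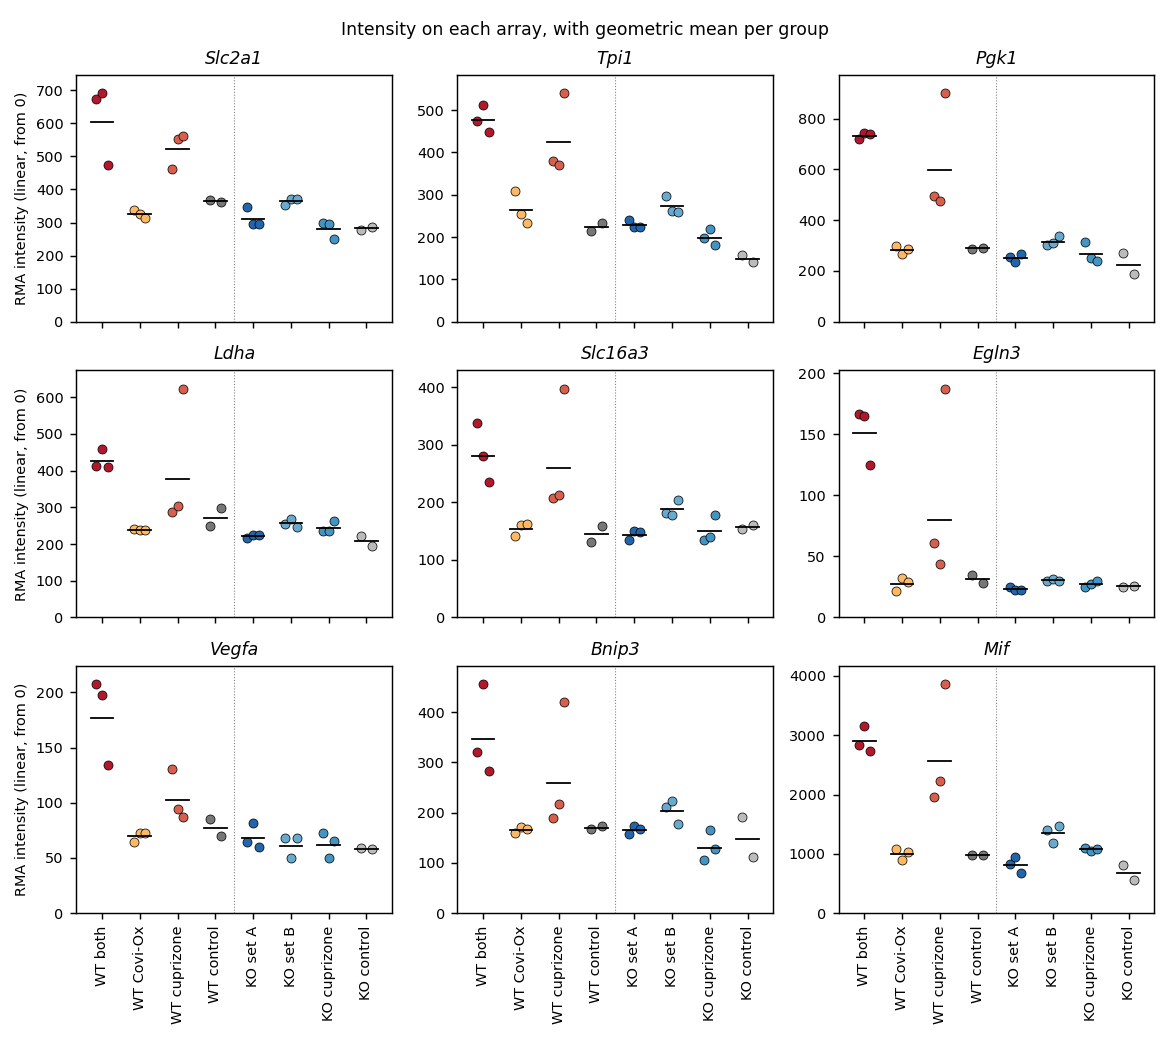
Intensity of 9 members on each array (points, linear axes from 0) by group, with the geometric mean of the group as a bar and a dotted line between WT and KO groups. The WT both points lie above the WT Covi-Ox points in every panel, and 1 WT cuprizone point, that of array 3, stands far above the other 2 for Pgk1, Ldha, Slc16a3, Egln3, Bnip3 and Mif.

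Among the genes of lactate handling, Slc16a3 rose in both comparisons and Ldha on Covi-Ox. Ldha, which turns pyruvate into lactate, had 412, 458 and 410.2 in WT both, against 241, 237 and 239 in WT Covi-Ox. It had 287, 302 and 624 in WT cuprizone, against 248 and 298 in WT control. The first pair lay apart and the second overlapped, with WT cuprizone 3 alone high. Ldha rose on Covi-Ox (0.83 ± 0.19, adjusted p = 0.00756) and was not called on chow (0.48 ± 0.21, adjusted p = 0.255). Slc16a3, the lactate exporter MCT4 of glycolytic cells, had 337, 281 and 235 in WT both, against 142, 160.2 and 162 in WT Covi-Ox, and 208, 212 and 398 in WT cuprizone, against 131 and 159.7 in WT control. Both pairs lay apart, and the difference was 0.86 ± 0.19 on Covi-Ox and 0.85 ± 0.21 on chow (adjusted p = 0.0384), where it was 0.54 and not called without WT cuprizone 3 (adjusted p = 0.142). Slc16a1, the carrier MCT1, had 65.5, 63.8 and 45.2 in WT both, against 51.5, 49.4 and 50.8 in WT Covi-Ox, and 51.1, 55.6 and 62.2 in WT cuprizone, against 49.3 and 42.9 in WT control. With differences of 0.18 ± 0.14 and 0.29 ± 0.15 it was not called. Pdk1, which holds pyruvate back from the mitochondria, had 0.03 ± 0.18 on Covi-Ox and 0.24 ± 0.20 on chow, neither called.

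In the oxygen-sensing branch, Hif1a itself rose in both comparisons at the RNA level. It had 484, 534 and 535 in WT both, against 309.7, 357 and 389 in WT Covi-Ox, and 395, 375 and 545 in WT cuprizone, against 302 and 294 in WT control. The differences were 0.56 ± 0.13 on Covi-Ox and 0.54 ± 0.14 on chow (adjusted p = 0.0484). The call on chow was kept under 7 of 17 alternative settings and lost under 10. Egln3, the prolyl hydroxylase PHD3, had 166, 165 and 125 in WT both, against 21.3, 32.1 and 29.4 in WT Covi-Ox. It had 61.03, 43.8 and 187 in WT cuprizone, against 34.9 and 27.9 in WT control. The groups did not overlap in either pair, which is no support here, since Egln3 entered the test through these cuprizone groups. WT cuprizone 3 was far above the other 2 arrays of its group. Levels on the 16 arrays below the array median are not exact. Egln1, the hydroxylase PHD2 that does most of the hydroxylation of Hif1a in normal oxygen, had 214, 207 and 171 in WT both, against 198, 186 and 185 in WT Covi-Ox, and 177, 219 and 250.2 in WT cuprizone, against 198 and 192 in WT control. The groups overlapped, with differences of 0.05 ± 0.13 and 0.13 ± 0.14.

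Of the known HIF-1 targets outside glycolysis, Vegfa and Bnip3 were called on Covi-Ox and not on chow. Vegfa, the growth factor of blood vessels, had 207, 197 and 134 in WT both, against 64.5, 72.5 and 72.2 in WT Covi-Ox, a difference of 1.34 ± 0.19 (adjusted p = 9.78e-05). It had 131, 94.4 and 87.4 in WT cuprizone, against 85.7 and 69.5 in WT control, which lay apart by little and gave 0.41 ± 0.21 (adjusted p = 0.337). WT cuprizone 3, high for most members, was the lowest of its group for Vegfa. Bnip3, a mitochondrial protein that promotes mitophagy, had 320.0, 455 and 284 in WT both, against 159, 172 and 168 in WT Covi-Ox, a difference of 1.06 ± 0.24 (adjusted p = 0.00901). It had 189, 218 and 419 in WT cuprizone, against 167 and 173 in WT control (0.61 ± 0.27, adjusted p = 0.266). Its relative Bnip3l had 721, 844 and 902 in WT both, against 874, 842 and 767 in WT Covi-Ox, and 824, 819.6 and 870.0 in WT cuprizone, against 814 and 892 in WT control. Those groups overlapped in both pairs. P4ha1, a collagen prolyl hydroxylase, Ankrd37 and the mitochondrial protein Higd1a were not called, with differences of 0.07, 0.41 and 0.29 on Covi-Ox and -0.21, 0.13 and 0.09 on chow.

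Mif, a cytokine of macrophages whose gene is also a HIF-1 target, had the largest called difference on chow. It had 2829.6, 3158 and 2728 in WT both, against 1080.0, 891 and 1035 in WT Covi-Ox, a difference of 1.54 ± 0.19 (adjusted p = 2.9e-05). It had 1963, 2222 and 3859 in WT cuprizone, against 985 and 979.9 in WT control, a difference of 1.38 ± 0.21 (adjusted p = 0.00105). In neither pair did the groups overlap.

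**Figure D3:**
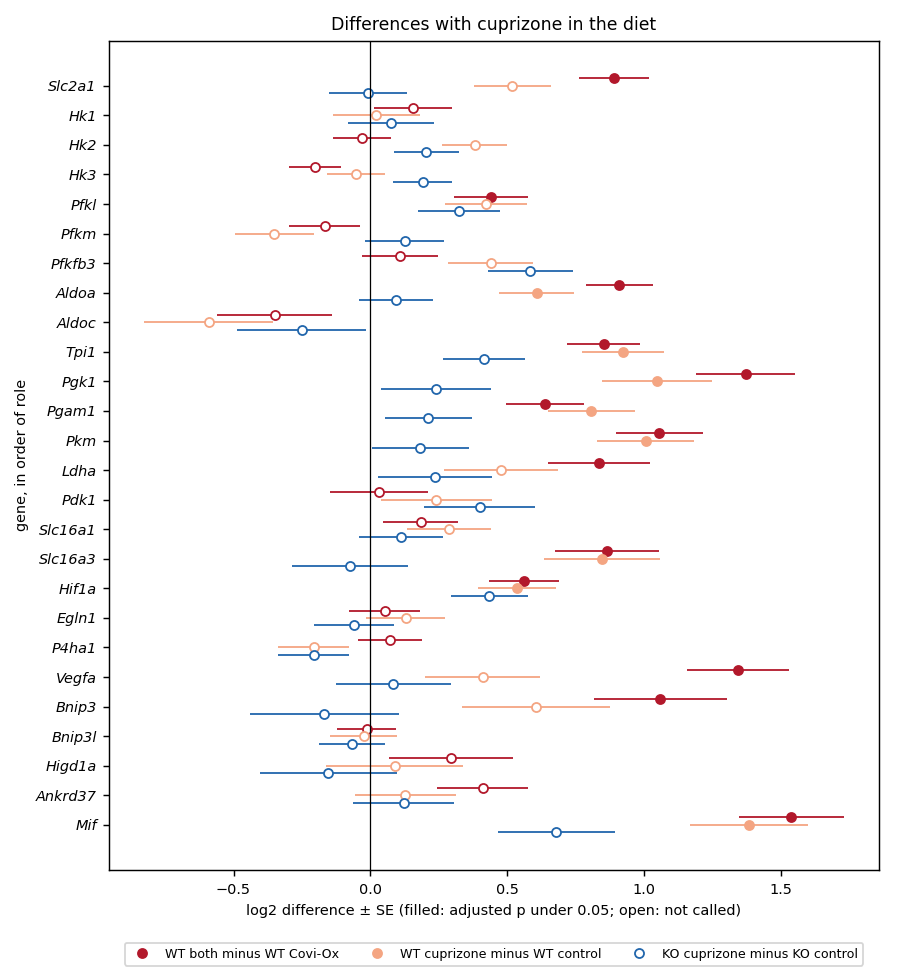
Log2 difference with its SE for each of 26 tested members in WT both relative to WT Covi-Ox, in WT cuprizone relative to WT control and in KO cuprizone relative to KO control, with filled points for called differences and open points for the rest. Egln3 is left out, and the filled points number 13, 8 and 0.

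The probe sets used for Hk1, Pgam1, Bnip3, Higd1a and Mif carry identifiers that lie among those of genes on another chromosome, while 97.2% of single-gene probe sets lie among those of their own chromosome, and whether these 5 read another sequence too was not tested. Of the 4 with a second probe set on their own chromosome, Mif had 560.0, 724 and 567 there in WT both, against 246, 211 and 219 in WT Covi-Ox, and 457, 465 and 922 in WT cuprizone, against 199 and 217 in WT control. Its differences were 1.45 ± 0.21 on Covi-Ox and 1.48 ± 0.23 on chow, both called. Bnip3 had 267, 355 and 247 in WT both, against 149, 135 and 156 in WT Covi-Ox, and was called with 0.97 ± 0.21 (adjusted p = 0.00686). Higd1a had 83.2, 85.8 and 85.1 in WT cuprizone, against 115 and 139 in WT control, and its difference of -0.58 ± 0.19 had the opposite sign to the 0.09 of the probe set used, with neither called. Hk1 had a geometric mean of 61.0 intensity units on its own chromosome's probe set, against 1415 on the probe set used. Its difference on Covi-Ox was -0.14 ± 0.11 there, opposite in sign to the 0.15 of the probe set used. On chow it was 0.02 ± 0.12, and neither was called. No second probe set bears on Pgam1.

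WT cuprizone 3, low in immediate-early genes, was the highest of its group for 18 of the 27 members, and without it 6 members rose on chow (Pfkfb3, Tpi1, Pgk1, Pgam1, Pkm and Mif), with a median member of 0.37. Aldoa (0.46, adjusted p = 0.1005), Hif1a (0.37, adjusted p = 0.224) and Slc16a3 lost their call, as did Egln3. Without WT control 1 the count on chow was 2 (Pkm and Mif), and without WT control 2 it was 3 (Tpi1, Pgam1 and Mif). With only the 5 arrays of the groups compared it was 0. On chow, then, 0 of the 9 calls (0 of 8 without Egln3) were kept under every alternative. On Covi-Ox, 11 of the 14 (10 of 13 without Egln3) kept their call under each of 18 alternatives, or of 17 for Pgam1. Pgam1 has no probe set on its own chromosome and was absent from that alternative.

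Covi-Ox on its own gave no called member. In WT Covi-Ox relative to WT control 0 of 27 members passed limma's test, and 0.0338% of all genes were called. An unadjusted p under 0.05 was found for 2 members and for 862 of all 11830 genes. The median member stood at -0.03. Pfkfb3 had 767, 782 and 788 in WT Covi-Ox, against 589 and 462 in WT control, and its difference of 0.58 ± 0.16 was the largest (adjusted p = 0.273). The neutrophil markers S100a8 and S100a9 fell by 5.99 and 5.24 in the same comparison.

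Adding Covi-Ox to cuprizone gave no called member either. In WT both relative to WT cuprizone 0 of 27 were called, against 0.152% of all genes. An unadjusted p under 0.05 was found for 2 members and for 957 of all 11830 genes. Of the 27 differences 22 were positive, with a median of 0.17. Leaving out Egln3, Vegfa had the lowest adjusted p, with 0.78 ± 0.19 (adjusted p = 0.135). The cuprizone effect on Covi-Ox minus that on chow was called for 0 members as well, against 0.0254% of all genes. Here 3 members, and 785 of all 11830 genes, had an unadjusted p under 0.05. The larger number of calls on Covi-Ox is therefore not shown to be a difference between the diets. These 2 results turned on WT cuprizone 3. Without it, WT both exceeded WT cuprizone for Pgk1 (0.60) and Ldha (0.53), and the difference of effects was called for Ldha (0.72). Egln3, which entered the test through the groups in which it is high, is left out here.

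In mice without Trem2, no member was called with cuprizone. Among the 27 tested members 0 passed limma's test in KO cuprizone relative to KO control, and 0.0423% of all genes were called. An unadjusted p under 0.05 was found for 5 members and for 1591 of all 11830 genes. The median member stood at 0.12, and 19 of the 27 differences were positive. The groups lay apart, with KO cuprizone the higher, for 8 members, against 10.6% of all genes. KO control 2 was the lower of the 2 KO control arrays for 22 of the 27 members, which bears on each comparison with that group.

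Tpi1 had 198, 219 and 181 in KO cuprizone, against 157 and 142 in KO control, a difference of 0.41 ± 0.15 (adjusted p = 0.247). Mif had 1098, 1054 and 1084 in KO cuprizone, against 812 and 558 in KO control, or 0.68 ± 0.21 (adjusted p = 0.198). In both genes the groups lay apart. Pgk1 had 313, 249.5 and 241 in KO cuprizone, against 271 and 187 in KO control (0.24 ± 0.20). Pkm had 353, 382 and 284 in KO cuprizone, against 255 and 346 in KO control (0.18 ± 0.18). Slc2a1 had 300.1, 295 and 249.5 in KO cuprizone, against 279 and 286 in KO control (-0.01 ± 0.14). These 3 overlapped between the groups. Aldoa had 975, 825 and 747 in KO cuprizone, against 812 and 771 in KO control (0.09 ± 0.14). Pgam1 had 242, 279 and 263 in KO cuprizone, against 231 and 219.8 in KO control (0.21 ± 0.16). Aldoa overlapped between the groups and Pgam1 lay apart. Ldha had 234, 236 and 264 in KO cuprizone, against 222 and 194 in KO control (0.24 ± 0.21). Slc16a3 had 134, 140.1 and 178 in KO cuprizone, against 154 and 161 in KO control (-0.07 ± 0.21). The Ldha values lay apart by little and those of Slc16a3 overlapped.

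Of the oxygen-sensing genes in KO mice, Hif1a had 299.7, 341 and 352 in KO cuprizone, against 247 and 241 in KO control (0.43 ± 0.14, adjusted p = 0.218). Egln3 stayed below the array median, with 24.8, 27.7 and 30.1 in KO cuprizone, against 24.6 and 25.99 in KO control. Vegfa had 72.6, 50.03 and 65.3 in KO cuprizone, against 58.7 and 58.1 in KO control (0.08 ± 0.21). For Hif1a the groups lay apart, and for Egln3 and Vegfa they overlapped. Bnip3 had 106, 165 and 127 in KO cuprizone, against 191 and 112 in KO control (-0.17 ± 0.27). Pfkl had 85.2, 82.99 and 73.8 in KO cuprizone, against 68.2 and 60.7 in KO control (0.32 ± 0.15). The isoenzyme partners Hk1, Hk2, Hk3, Pfkm, Aldoc, Slc16a1, Egln1 and Bnip3l had differences between -0.25 (Aldoc) and 0.20 (Hk2).

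Set directly against each other on cuprizone, KO microglia had lower levels of 11 of the 27 members than WT microglia and a higher level of none, where 2.98% of all genes were lower and 0.82% higher. Without Egln3 the count was 10 of 26. Besides Egln3 these were the glucose carrier Slc2a1 (-0.90 ± 0.13), the enzymes Aldoa (-0.83 ± 0.12), Tpi1 (-1.09 ± 0.13), Pgk1 (-1.16 ± 0.18), Pgam1 (-0.61 ± 0.14) and Pkm (-0.81 ± 0.16), the lactate exporter Slc16a3 (-0.80 ± 0.19), and Vegfa (-0.73 ± 0.19), Bnip3 (-0.99 ± 0.24) and Mif (-1.25 ± 0.19). Tpi1 had the lowest adjusted p (4.36e-05), with 198, 219 and 181 in KO cuprizone, against 379.5, 370.4 and 541 in WT cuprizone. The KO and WT cuprizone arrays did not overlap for any of the 10 besides Egln3. They did not for Egln3 either, which entered the test through the WT groups fed cuprizone. Without WT cuprizone 3, Pgam1, Bnip3 and Slc16a3 lost their call, and Slc16a3 stood at -0.49 (adjusted p = 0.0906). Ldha (-0.63 ± 0.19, adjusted p = 0.0656), Pfkl (-0.47 ± 0.13, adjusted p = 0.0537) and Hif1a (-0.39 ± 0.13, adjusted p = 0.0927) lay apart as well and were not called, which makes 14 members (13 without Egln3) apart with KO the lower, against 11.6% of all genes. The median member stood at -0.39 (-0.35 without Egln3) and the median of all genes at -0.01. In the same comparison Fn1 fell by 2.72 and Flt1 by 1.54, while 3 of the 5 tested monocyte markers and 3 of the 4 tested endothelial ones had positive differences. Without Fn1 the monocyte markers summed to 228 to 313 in KO cuprizone, against 225 to 271 in WT cuprizone. The part of these markers in the result was not tested.

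Among untreated mice, 0 members were called in KO control relative to WT control, against 0.0676% of all genes. An unadjusted p under 0.05 was found for 5 members and for 1244 of all 11830 genes. The direction of the members was nonetheless mostly down: 25 of 27 differences were negative, with a median of -0.20. The groups lay apart with KO the lower for 14 members (13 without Egln3), against 21.7% of all genes, and Tpi1 had 157 and 142 in KO control, against 214 and 234 in WT control (-0.58 ± 0.16, adjusted p = 0.258). The test of whether cuprizone acted differently in the 2 genotypes, the KO effect minus the WT effect, called 0 members, against 0.228% of all genes. Of all 11830 genes 1192 had an unadjusted p under 0.05, as did 10 of the 27 members. The lowest adjusted p was that of Pkm (-0.82 ± 0.25, adjusted p = 0.261), followed by Slc16a3 (-0.92 ± 0.30, adjusted p = 0.33) and Pgk1 (-0.81 ± 0.29, adjusted p = 0.336). A differing response by genotype is therefore not shown for any member, and a p that misses the threshold does not show that the responses were alike.

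The 3 arrays low in immediate-early genes all belong to the KO cuprizone and WT cuprizone groups. Without them 1 KO cuprizone array and 2 WT cuprizone arrays remain, and with a lone KO cuprizone array no count of calls is given. With all 6 arrays of these groups, and only those, in the fit, 2 members were lower in KO (Tpi1 and Slc2a1).

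**Figure D4:**
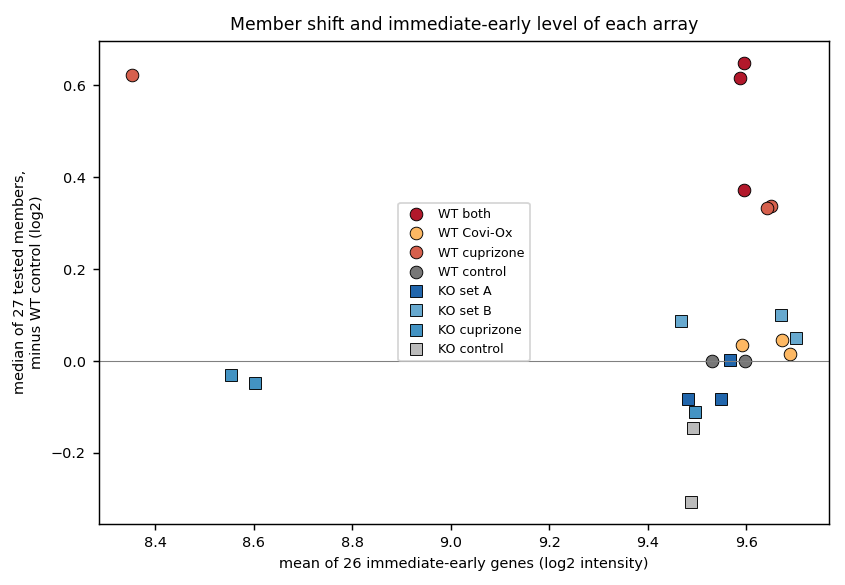
Median over the 27 tested members of log2 intensity minus the WT control mean (vertical axis) against the mean log2 intensity of 26 immediate-early genes (horizontal axis) for each of the 22 arrays, circles for WT and squares for KO. WT cuprizone 3, at 8.35 and 0.62, stands apart at the upper left, KO cuprizone 2 and 3 lie at -0.03 and -0.05 on the lower left, and the other 2 WT cuprizone arrays lie at 0.34 and 0.33 among arrays of usual immediate-early level.

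Both KO sets with contradictory labels had lower levels of many members than WT both, the only WT group given cuprizone with Covi-Ox. By the titles set B, and by the other fields set A, had Covi-Ox without cuprizone. That set differs from WT both in cuprizone as well as in genotype, and which set it is cannot be told. In KO set A relative to WT both 14 of 27 members were lower and none higher, where 5.6% of all genes were lower and 4.01% higher. In KO set B relative to WT both 12 were lower and none higher, where 2.62% of all genes were lower and 1.27% higher. The median member stood at -0.59 for set A and -0.45 for set B. Without Egln3 the counts were 13 and 11 of 26, and the medians -0.50 and -0.40. Of other cell types' markers Fn1 had -4.63 in set A and -4.40 in set B, and Flt1 had -2.45 and -2.44. Pecam1 was higher by 0.86 in set A and 0.74 in set B, Cdh5 was higher in set B, and Mrc1 and Pf4 were higher in set A. Their part in the result was not tested. Because both comparisons share the WT both arrays, they are not independent of each other or of the comparison of WT both with WT Covi-Ox.

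Pgk1 had 255, 234 and 267 in KO set A and 300.5, 309 and 337 in KO set B, against 718, 742 and 737 in WT both. Mif had 822, 950.2 and 673 in KO set A and 1399, 1191 and 1467 in KO set B, against 2829.6, 3158 and 2728 in WT both. Egln3 had 24.6, 22.2 and 22.8 in KO set A and 29.9, 31.1 and 29.8 in KO set B, against 166, 165 and 125 in WT both. No array of either set reached the lowest array of WT both for Pgk1 or Mif. Egln3 lay apart too, but it entered the test through groups in which it is high, WT both among them. Slc2a1 had 346, 297 and 294 in KO set A and 353, 371 and 370.2 in KO set B, against 673, 692 and 473 in WT both. Vegfa had 64.8, 81.3 and 59.6 in KO set A and 67.7, 49.6 and 68.2 in KO set B, against 207, 197 and 134 in WT both. Ldha had 216, 224 and 224 in KO set A and 253, 268 and 248 in KO set B, against 412, 458 and 410.2 in WT both. These too lay wholly below WT both.

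In numbers, set A minus WT both was -1.85 ± 0.19 for Mif (adjusted p = 2.04e-06), -1.54 ± 0.18 for Pgk1, -1.38 ± 0.19 for Vegfa, -1.19 ± 0.16 for Pkm, -1.06 ± 0.24 for Bnip3, -1.06 ± 0.13 for Tpi1 and -0.9997 ± 0.12 for Aldoa. The other members lower in set A were Egln3, Slc16a3 (-0.97), Slc2a1 (-0.95), Ldha (-0.95), Pgam1 (-0.82), Hif1a (-0.64) and Pfkl (-0.59). Set B minus WT both was -1.53 ± 0.19 for Vegfa (adjusted p = 2.79e-05), -1.22 ± 0.18 for Pgk1, -1.11 ± 0.19 for Mif and -0.84 ± 0.16 for Pkm. The other members lower in set B were Egln3, Tpi1 (-0.81), Ldha (-0.73), Slc2a1 (-0.73), Aldoa (-0.71), Pgam1 (-0.59), Pfkl (-0.49) and Hif1a (-0.45). Slc16a3 (-0.58 ± 0.19) and Bnip3 (-0.77 ± 0.24) were not called in set B.

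**Figure D5:**
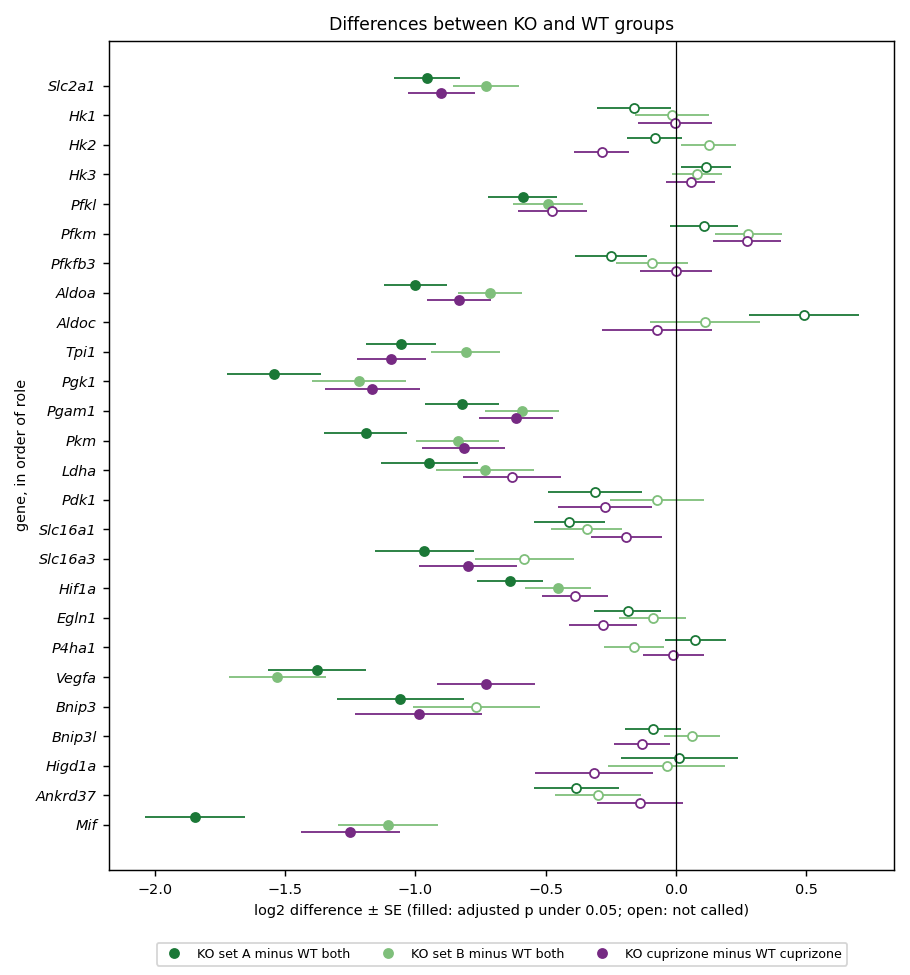
Log2 difference with its SE for each of 26 tested members in KO set A and KO set B relative to WT both and in KO cuprizone relative to WT cuprizone, with filled points for called differences and open points for the rest. Egln3 is left out, and the filled points, all to the left of 0, number 13, 11 and 10. By the titles set B, and by the other fields set A, had no cuprizone, unlike WT both.

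Relative to their own control the 2 KO sets gave different numbers of calls. In KO set B relative to KO control 5 members rose and none fell, where 0.549% of all genes rose and 0.194% fell: Hk2 (0.52 ± 0.12), Pfkfb3 (0.74 ± 0.16), Tpi1 (0.87 ± 0.15), Hif1a (0.63 ± 0.14) and Mif (1.0001 ± 0.21), with adjusted p from 0.015 (Tpi1) to 0.0462 (Hk2). Tpi1 had 297, 263 and 260.4 in KO set B, against 157 and 142 in KO control. In KO set A relative to KO control 0 were called, against 0.0338% of all genes. Here 6 members, and 1364 of all 11830 genes, had an unadjusted p under 0.05. Tpi1 had 241, 224 and 224 in KO set A (0.62 ± 0.15, adjusted p = 0.136). Set against each other, KO set A minus KO set B called 0 members, against 0.00845% of all genes. Of all 11830 genes 1041 had an unadjusted p under 0.05, as did 3 members. The largest was Mif, at -0.74 ± 0.19 (adjusted p = 0.179), so the sets are not shown to differ. The 5 calls of set B depended on few arrays: without KO control 2 there were 0, and without any 1 array of set B there was 1 (Tpi1). In the same comparison all 8 tested neutrophil markers had negative differences (median -1.20), S100a8 had -3.63 and S100a9 -3.67, and the 12 neutrophil markers summed to 328 to 902 in KO set B, against 2101 to 2173 in KO control. Their part in the result was not tested. Mif on its own chromosome's probe set had 0.95 ± 0.23 in this comparison and was not called (adjusted p = 0.0634).

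Of 51 further genes of these pathways that were tested, 7 rose and 3 fell on Covi-Ox (13.7% and 5.88%, against 4.65% and 3.17% of all genes), and 4 rose and none fell on chow (7.84%, against 1.8% of all genes). Of 30 further genes of glycolysis and glucose use 23 were tested, and in WT both relative to WT Covi-Ox the glucose carrier Slc2a6 (1.05 ± 0.16) and the glycogen phosphorylase Pygl (0.83 ± 0.22) rose, while the fructose carrier Slc2a5, a marker of microglia, fell (-0.82 ± 0.19). In WT cuprizone relative to WT control Slc2a6 (0.73 ± 0.18) and the phosphoglucomutase Pgm1 (0.62 ± 0.16) rose. The median of the 23 was 0.01 on Covi-Ox and 0.07 on chow. Of 10 pentose phosphate genes 8 were tested, and Pgls (0.66 ± 0.19) and Pgd (0.44 ± 0.13), both of the oxidative branch, rose on Covi-Ox and Pgd alone on chow (0.62 ± 0.15). Of 32 further genes of the HIF pathway and hypoxia 20 were tested. The chemokine receptor Cxcr4 rose on Covi-Ox (2.16 ± 0.25) and on chow (1.56 ± 0.28), and Fam162a (1.04 ± 0.21) and the oxidase Ero1a (0.67 ± 0.15) rose on Covi-Ox. In the same list Ddit4 (-0.70 ± 0.19), an inhibitor of mTORC1 that hypoxia is known to induce, and the histone demethylase Kdm3a (-0.35 ± 0.08) fell on Covi-Ox. The median of the 20 was 0.01 on Covi-Ox and 0.02 on chow.

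In KO cuprizone relative to KO control none of the 3 lists held a called gene. Of the 51 genes 5 (9.8%) were lower in KO cuprizone relative to WT cuprizone, 7 (13.7%) in set A and 4 (7.84%) in set B relative to WT both, against 2.98%, 5.6% and 2.62% of all genes. In KO cuprizone relative to WT cuprizone the phosphoglucomutase Pgm2 (-0.46 ± 0.13), Pgd (-0.57 ± 0.13), Ero1a (-0.69 ± 0.15), Cxcr4 (-1.19 ± 0.25) and the transferrin receptor Tfrc (-0.94 ± 0.19) were lower in KO. In KO set A relative to WT both Slc2a6 (-1.01), Pygl (-0.72), Pgd (-0.61), Tkt (-0.62), Ero1a (-0.94), Fam162a (-1.09) and Cxcr4 (-2.56) were lower and Slc2a5 was higher (0.93). In KO set B relative to WT both Slc2a6 (-0.77), Ero1a (-0.93), Cxcr4 (-2.05) and Tfrc (-0.73) were lower and Slc2a5 was higher (0.98). In the same 3 comparisons microglia markers were called higher in KO for 4 of 13 (KO cuprizone), 9 of 13 (set A) and 5 of 13 (set B), and 1 was lower in each of the 2 sets.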

How the data were processed

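The authors deposited probe set intensity values on a linear scale for 22 arrays, normalized with RMA per the submitters' processing notes (version not given in the sources used here), and they were put on the log2 scale for every test. RMA equalises the distributions of the arrays, which hides any change in total RNA. Names came from GEO's platform annotation, and of 28098 probe sets the 21640 with a single gene were used. Each of 19937 genes was represented by its probe set with the highest mean, and 11830 above the array median on at least 2 arrays were tested. One limma model (limma 3.58.1, R 4.3.3) estimated a mean for each of 8 groups from all arrays together, leaving 14 residual degrees of freedom. Benjamini-Hochberg adjustment ran over all genes tested, and calls are at an adjusted p under 0.05, two-sided. The number of arrays limits the precision.

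The members, the further lists (further glycolysis, pentose phosphate and HIF pathway genes, immediate-early genes and markers of cell types), the tests and most alternatives were chosen with earlier results of these data known. All members are accounted for: called ones are named in every comparison, and values by array are given for members called in either WT cuprizone comparison and their isoenzyme partners. The lists are described by counts and medians with no set test. Leaving out 3 arrays low in immediate-early genes, using the immediate-early mean as a covariate and using probe sets on the gene's own chromosome were added after seeing the data. Promoter windows came from RefSeq (GRCm38.p6), whose annotation served otherwise for names and chromosomes. The workflow was tested on simulated data.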

Additional observations from a re-analysis of the deposited data

How the results depend on the processing

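Of 1151 recomputed differences of called members, 1003 stayed called, 148 did not and 0 reversed. The absence of reversals says little. Changing the filter, using limma's trend and robust options or fitting only the groups compared leaves the difference itself unchanged. The other settings reuse the same arrays on members already called. Leaving out each array in turn gave 2 to 10 called members in WT cuprizone relative to WT control, 12 to 14 in WT both relative to WT Covi-Ox, 8 to 12 in KO cuprizone relative to WT cuprizone, 13 to 15 and 8 to 11 in KO sets A and B relative to WT both, 0 to 5 in set B and 0 to 2 in set A relative to KO control, 0 to 1 in KO cuprizone relative to KO control (Mif or Pfkfb3), 0 to 3 in WT both relative to WT cuprizone, and 0 to 2 in the cuprizone effect on Covi-Ox minus that on chow. With only the arrays of the groups compared, 0 members were called instead of 9 in WT cuprizone relative to WT control. The count was 2 instead of 11 in KO cuprizone relative to WT cuprizone, and 0 instead of 5 in set B relative to KO control. That setting takes the spread from fewer arrays and from those groups alone. In WT both relative to WT Covi-Ox the settings other than leaving out 1 array gave 13 to 14 calls. Why the other counts fell was not tested. The set B count was also 3 without the filter, 2 after quantile normalization and 0 with array weights. Array weights gave 1 call each in WT both relative to WT cuprizone, WT Covi-Ox relative to WT control (Pfkfb3) and set A minus set B (Mif), where there had been 0.

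Without the 3 arrays low in immediate-early genes, a setting chosen after seeing the data, 7 members were called in WT cuprizone relative to WT control. The count was 14 in WT both relative to WT Covi-Ox and 3 in WT both relative to WT cuprizone (Pgk1, Ldha and Egln3). It was 1 in WT Covi-Ox relative to WT control (Pfkfb3). In set A it was 2 relative to KO control (Pfkfb3 and Tpi1) and 1 relative to set B (Mif). Relative to WT both it was 15 in set A and 14 in set B. It was 2 in the difference of effects between diets (Ldha and Egln3). No count is given for KO cuprizone, where 1 array remained. With the mean of the immediate-early genes as a covariate, also chosen after seeing the data, the counts were 14 in KO cuprizone relative to WT cuprizone, 1 in WT both relative to WT cuprizone (Egln3), 1 in set A relative to KO control (Tpi1), 1 in set A minus set B (Mif), and 2 in the KO effect minus the WT effect (Slc16a3 at -1.06, adjusted p = 0.0334, and Egln3). Counts in this section include Egln3 wherever it was called, although it entered the test through the groups in which it is high. The causes were not tested.

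Arrays with the same replicate number did not pair: the correlation of their deviations ran from -0.23 to 0.25, no comparison of 3 or more pairs had every one over 0.1, and at most 4 of 6 arrays matched best with their own number. With the replicate number as a block the count was 1 in set B relative to KO control (Tpi1), 6 in WT cuprizone relative to WT control, 12 in KO cuprizone relative to WT cuprizone and 14 in WT both relative to WT Covi-Ox. Egln3, Pfkm and Aldoc, above the array median on 6, 15 and 16 of 22 arrays, have the least exact levels.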

Other observations

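Pfkfb3, which drives the phosphofructokinase step, had 665, 709 and 751 in KO set A, 770.3, 747 and 852 in KO set B and 609, 677 and 855 in KO cuprizone, against 495 and 448 in KO control. All 9 treated KO arrays lay above both KO control arrays, and the differences were 0.59 ± 0.16, 0.74 ± 0.16 and 0.58 ± 0.16, called for set B alone. In WT mice it had 886, 794 and 845 in WT both, 767, 782 and 788 in WT Covi-Ox and 798, 793 and 558 in WT cuprizone, against 589 and 462 in WT control, with WT cuprizone 3 below WT control 1.

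Over the 27 tested members the difference on Covi-Ox and that on chow in WT mice, which share no array, had a Pearson r of 0.86 and a Spearman rho of 0.87. This is a description across genes, which are not independent replicates. Egln3 is among the 27, and the values without it were not computed. The sign was the same for 25 members, and the difference on Covi-Ox was the larger for 19.

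On its second probe set Higd1a had 115, 157 and 91.00 in KO set A, against 76.8, 58.6 and 56.5 in WT both, a difference of 0.90 (adjusted p = 0.00156), while the probe set used gave 0.01.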
